A study of Homo sapiens with 14 samples.

Results

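The Krüppel-like factors (KLFs) examined here were KLF2, KLF4, KLF5, KLF6, KLF7, KLF9, KLF10, KLF11, KLF12 and KLF13. The 10 genes were chosen with earlier results of these data known. Each probe set that the array annotation assigns to 1 of them was then taken, a step that used no measured values. This gave 19 of the 22215 probe sets on the array that were not controls. Of these, 14 probe sets, covering 9 genes, had a mean log2 value over the 14 arrays above a low-value level of 6.57, equal to a signal of 79.1. KLF4 had no probe set above that level, and 1 probe set each of KLF6, KLF9 and KLF12 was also below it. Probe sets below it are called dim.

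The cells were U2OS, a human osteosarcoma line, stably expressing ER-E2F1, in which the cell cycle factor E2F1 is joined to part of the estrogen receptor and is switched on by 4-hydroxytamoxifen (OHT). Every group carried ER-E2F1, a lentivirus and a serum-free period of 24 h. The lentivirus held a scrambled hairpin (sh-scr) or 1 of 2 hairpins, shFOXO33 and shFOXO707, both aimed at the forkhead factors FOXO1 and FOXO3 together. Cells were then kept in serum-free medium for 6 h without OHT (con) or with 20 nM OHT. There were 4 arrays of sh-scr con, 4 of sh-scr OHT, 1 each of shFOXO33 con and shFOXO707 con, and 2 each of shFOXO33 OHT and shFOXO707 OHT. Cells without ER-E2F1 were not analysed here, so effects of OHT itself and of E2F1 cannot be told apart, nor can the loss of FOXO1 from that of FOXO3. The labels do not say whether arrays of 1 group came from separate cultures, so p-values measure only how these samples vary, and that variation may be technical. In bulk RNA, fewer cells expressing a gene and less RNA per cell cannot be told apart.

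KLFs are transcription factors with zinc fingers at their C-terminal end that bind GC-rich and CACCC sequences in promoters, sites they share with the related SP factors. Their N-terminal parts differ and set the partners they bind: KLF2, KLF4, KLF5, KLF6 and KLF7 are mostly activators that work with acetyltransferases, KLF9, KLF10, KLF11 and KLF13 carry a short motif that recruits the corepressor SIN3A, and KLF12 recruits CtBP corepressors. Several are immediate early or hormone-induced genes. KLF10 is also known as TGF-beta-inducible early gene and was described in osteoblasts, and KLF2 is known for keeping endothelial cells and T cells quiescent.

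The promoters are shown because many KLF genes themselves carry the GC-rich sites that the family binds, and because E2F and FOXO factors are the ones the study manipulated. The windows are the 250 bases before each start site in RefSeq (GRCh38.p14), which held 17 windows for 9 of the 10 genes, and each was searched on both strands for fixed letters, with the motifs chosen while these promoters were in view. The GC box GGGCGG, bound by SP factors and KLFs, was present in 42.6% of the 35116 windows in the table, so a match is common. The activator KLF2 had 4 GC boxes and 1 match to a MEF2 element, the run of capitals that starts 120 bases upstream (MEF2 factors are known to drive KLF2 in endothelium), present in 0.0570% of all windows. The activator KLF6 had 2 GC boxes and the SIN3A-binding repressor KLF13 had 3. The KLF2 window is chr19:16324576-16324825 on the plus strand, that of KLF6 chr10:3785210-3785459 on the minus strand and that of KLF13 chr15:31326585-31326834 on the plus strand. Capitals mark these matches, which are descriptions and not bound sites.
KLF2: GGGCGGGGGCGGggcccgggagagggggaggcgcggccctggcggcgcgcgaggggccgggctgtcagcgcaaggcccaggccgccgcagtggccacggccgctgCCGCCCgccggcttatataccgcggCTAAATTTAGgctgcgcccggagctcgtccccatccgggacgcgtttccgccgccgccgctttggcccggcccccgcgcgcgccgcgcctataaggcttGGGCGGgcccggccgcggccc
KLF6: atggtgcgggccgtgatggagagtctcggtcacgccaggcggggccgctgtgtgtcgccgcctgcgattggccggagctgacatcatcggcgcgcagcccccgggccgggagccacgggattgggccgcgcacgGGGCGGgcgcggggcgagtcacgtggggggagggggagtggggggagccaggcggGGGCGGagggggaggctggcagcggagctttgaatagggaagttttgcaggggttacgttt
KLF13: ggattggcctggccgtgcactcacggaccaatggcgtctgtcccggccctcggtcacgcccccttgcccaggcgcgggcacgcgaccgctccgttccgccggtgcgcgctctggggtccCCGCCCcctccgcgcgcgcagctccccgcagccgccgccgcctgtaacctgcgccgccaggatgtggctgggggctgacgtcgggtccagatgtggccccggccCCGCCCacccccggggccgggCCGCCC

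E2F-type letters (TTTCCCGC, TTTGGCGC, TTTCGCGC, TTTGCCGC or GGCGGGAA, of which the first and last can overlap on opposite strands) stood in 4.76% of all windows. Among the KLF windows only 1, before a KLF11 start site, held them, at 124 and 79 bases upstream. Both stretches, chr2:10044086-10044115 and chr2:10044131-10044160 on the plus strand, are given with the match in capitals.
KLF11 match 1: ggggagcggctGGCGGGAAcgcggcacgcg
KLF11 match 2: caagagctgctGGCGGGAAcgcggcacggt

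The FOXO letters GTAAACA, present in 2.98% of all windows, and the CACCC letters CCACACCC, present in 2.97%, were in 0 of the 17 KLF windows. The KLF9 window, with a GC content of 32.4% against a median of 58.0% over all windows, held none of the searched letters, whereas the KLF2 and KLF13 windows had GC contents of 80.0% and 78.8%. No match says only that these letters are not in this window.

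The arrays had median signals of 137 to 143 without OHT and 115 to 120.1 with OHT, after a common scaling by which all trimmed means equal 500. Under OHT the FOXO1 signal came to 501 ± 32.7 (SD, n = 4) for the scrambled hairpin and 199 ± 48.5 (SD, n = 4) for the FOXO hairpins, and that of FOXO3 to 1793 ± 45.2 (SD, n = 4) and 558 ± 293 (SD, n = 4). Both thus fell with the hairpins, with log2 changes of -1.29 ± 0.15 (SE, adjusted p = 8.9e-05) for FOXO1 and -1.81 ± 0.29 (SE, adjusted p = 0.0014) for FOXO3, the latter -2.49 with shFOXO33 alone and -1.13 with shFOXO707 alone. Without OHT, FOXO1 was at 103 in scrambled, 49.2 in shFOXO33 and 39.1 in shFOXO707 cells. FOXO3 was at 449, 138 and 274 there. The pooled hairpin difference without OHT was -0.99 ± 0.18 for FOXO1 (SE, adjusted p = 0.0084 in limma). For FOXO3 it was -1.13 ± 0.36 (SE, adjusted p = 0.12) and not called. In scrambled cells OHT raised both, by 2.12 and 1.96 on the log2 scale. The ratio of 3' to 5' ACTB signal, a sign of RNA quality, was 1.4999 to 1.59 in scrambled cells without OHT and 1.60 to 1.74 with OHT, 1.49 and 1.64 on the shFOXO33 and shFOXO707 arrays without OHT, 1.60 to 1.63 with shFOXO33 and OHT and 1.95 to 2.04 with shFOXO707 and OHT. Of 9 osteoblast and mesenchymal markers 6 were above the low-value level, including COL1A1 (7086 to 10319) and VIM (11456 to 15115), while the osteoblast factor RUNX2 was dim (16.5 to 46.6). The summed signal of this list was 33537 to 34775 in scrambled cells without OHT, 28737 to 31011 with OHT, 22035 to 22987 with shFOXO33 and OHT and 27761 to 30197 with shFOXO707 and OHT. Above the level were 3 of 6 epithelial, 0 of 6 endothelial, 1 of 6 blood and 2 of 6 neural markers. In scrambled cells without and with OHT the epithelial sum was 6789 to 7343 and 5157 to 5439, and the neural sum 2844 to 3164 and 4614 to 4803. With OHT the epithelial sum was 5879 to 6224 for shFOXO33 and 3472 to 3563 for shFOXO707, and the neural sum 4052 to 4058 and 4657 to 4728.

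OHT in scrambled cells moved all 9 of the KLF genes examined here that were above the low-value level. KLF3 was not among the genes examined but was also above the level. It gave a log2 change of 0.37 ± 0.21 in limma (SE, adjusted p = 0.17) and was not called. After median centring or quantile normalization KLF3 was called higher, so whether it responds to OHT is not settled. The 4 SIN3A-binding members KLF9, KLF10, KLF11 and KLF13 rose together, between 1.84-fold and 3.9-fold in mean signal, and so did KLF2 and KLF12. KLF5, KLF6 and KLF7 fell, with mean signals 2.74, 10.9 and 4.83 times lower. A change was called at an adjusted p under 0.05 in limma over all 22215 probe sets. By that rule 8 of the 19 KLF probe sets rose and 7 fell, where 16.2% of all probe sets rose and 29.2% fell. Counting the brightest probe set of each of the 9 genes, 6 rose and 3 fell. The median log2 change was -0.14 over all probe sets, and centring each array on its median moved that to 0.088.

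**Figure D1:**
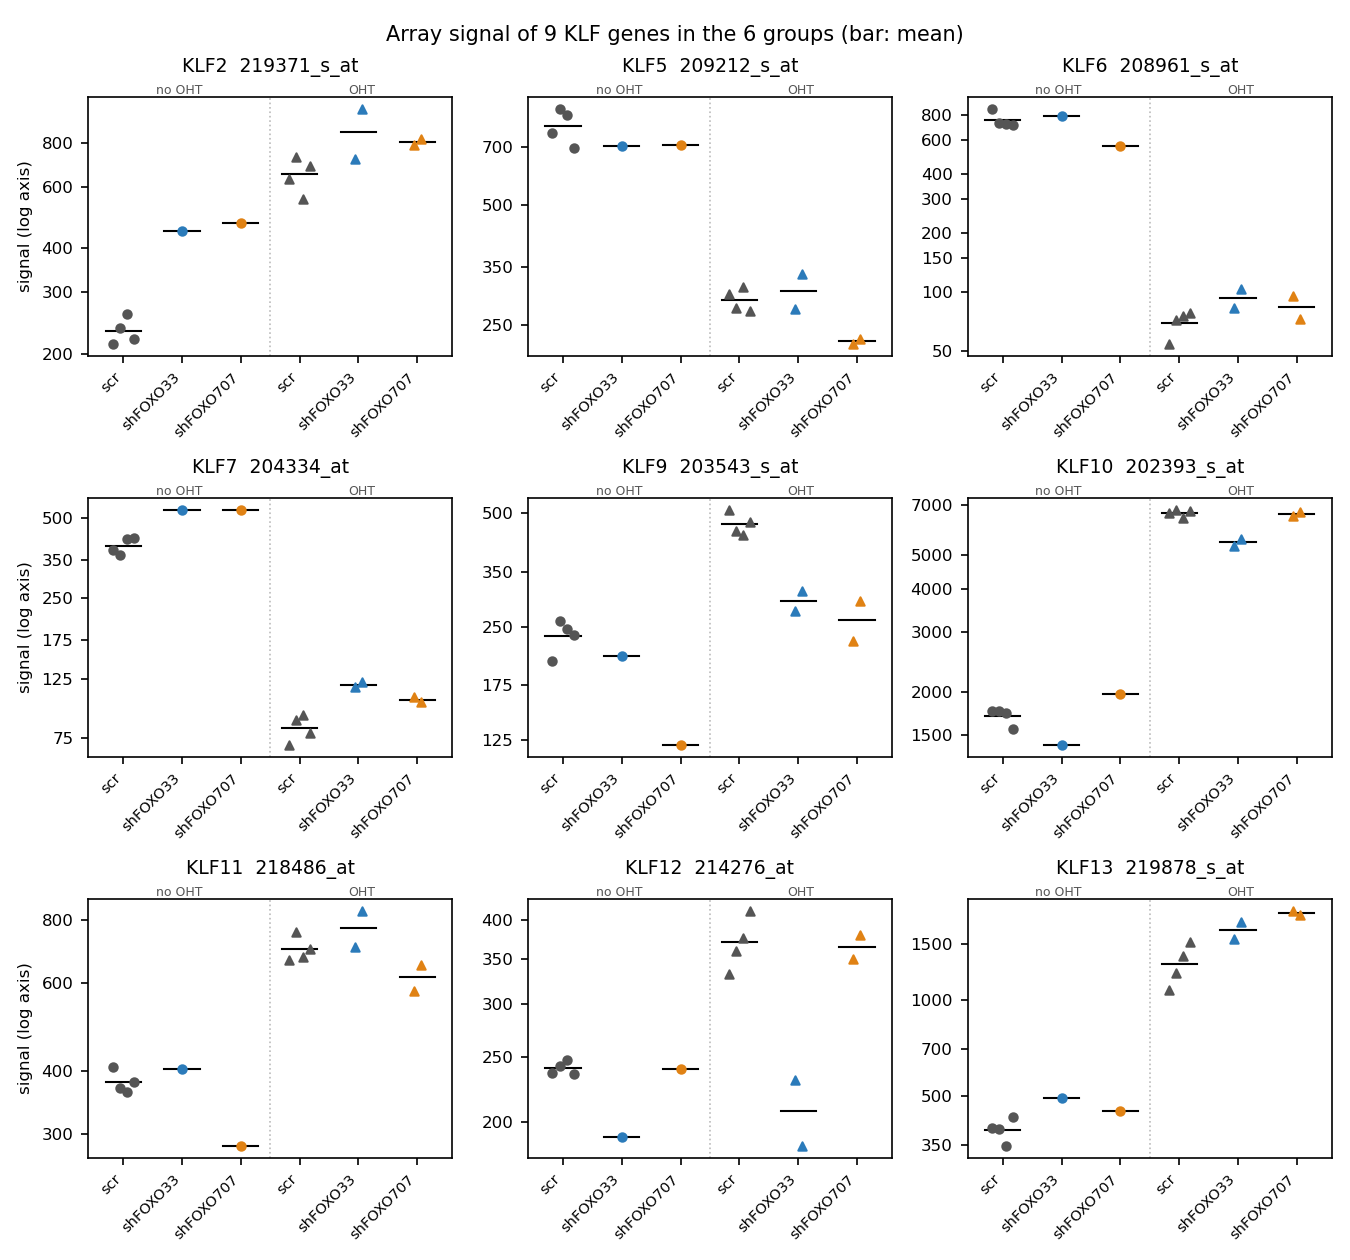
Signal of the brightest probe set of each of 9 KLF genes on every array, on log axes, with circles for no OHT, triangles for OHT and bars for group means. With OHT, KLF10 and KLF13 sat above 1000 on all 8 arrays and KLF6 at 103 or below, with no overlap with the arrays without OHT.

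Among the repressors, KLF10 had signals of 1762, 1758, 1735 and 1566 on the 4 scrambled arrays without OHT and 6654, 6795, 6419 and 6727 with OHT. The arrays with OHT were all far above those without, a 3.9-fold ratio of mean signals and a log2 change of 1.95 ± 0.10 (SE, adjusted p = 6.9e-10). KLF13, a factor known for driving CCL5 in T cells, had 397, 392, 348 and 429 without OHT and 1073, 1212, 1370.2 and 1519 with OHT. The groups did not overlap although the OHT arrays spread more than the others, and the log2 change was 1.68 ± 0.10 (SE, adjusted p = 7.4e-09), a 3.31-fold ratio.

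KLF9, a gene induced by glucocorticoid and thyroid hormones, had 203, 259, 246 and 237 without OHT and 510.4, 449, 437 and 472 with OHT. All OHT arrays were higher, with a log2 change of 0.94 ± 0.14 (SE, adjusted p = 6.4e-05). A second KLF9 probe set rose likewise, by 0.89, and the dim one, with signals from 4.92 to 58.4, gave -0.73 ± 0.37 and was not called (adjusted p = 0.12). KLF11, the closest relative of KLF10 and the gene with the E2F-type letters printed above, had 408, 371, 364 and 381 without OHT and 666, 755, 675 and 702 with OHT. Its groups were again separate, and it rose by 0.85 ± 0.12 (SE, adjusted p = 2.5e-05), a 1.84-fold ratio.

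KLF12, the CtBP-binding repressor of TFAP2A, had 236, 242, 248 and 236 without OHT and 333, 360.1, 377 and 413 with OHT at its brightest probe set. Every OHT array was higher, and the log2 change was 0.59 ± 0.18 (SE, adjusted p = 0.014). The other probe sets of KLF12 above the level gave 0.24 ± 0.21 and 0.21 ± 0.20 and were not called (adjusted p = 0.41 and 0.44). The dim one was called higher, at 0.87. The probe sets of this gene therefore disagree on whether the rise passed the test, and all 4 estimates were positive.

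Of the 4 activator genes above the level, KLF2 rose and the other 3 fell. The KLF2 signals were 214, 237, 259.6 and 220.5 without OHT and 630.4, 731, 554 and 685 with OHT. The groups were well apart, a 2.79-fold ratio and a log2 change of 1.42 ± 0.11 (SE, adjusted p = 7.0e-08). All 6 endothelial markers (PECAM1, CDH5, VWF, KDR, TEK and CLDN5) were below the low-value level, and their summed signal was 115 to 192 in scrambled cells without OHT and 124 to 215 with it.

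KLF6, an early response gene regarded as a tumour suppressor, had 866, 731, 721 and 718 without OHT and 54.2, 71.5, 74.9 and 78.0 with OHT. The OHT arrays all lay under the low-value level, the mean signal was 10.9 times lower, and the log2 change was -3.18 ± 0.14 (SE, adjusted p = 1.8e-10). Its second probe set fell from 336, 295, 317 and 276 to 62.2, 56.6, 25.1 and 5.79, a log2 change of -2.76 ± 0.39 that ran from -3.43 to -1.91 with other pseudocounts, and its dim one changed by -0.79 ± 0.20. KLF7, known from neurons and fat cells, had 379.7, 363, 417 and 421 without OHT and 70.4, 87.1, 91.4 and 78.3 with OHT. There was no overlap here either, with a mean signal 4.83 times lower and a log2 change of -2.07 ± 0.10 (SE, adjusted p = 6.1e-10). The KLF7 arrays with OHT lay near the low-value level, on both sides of it.

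KLF5, which promotes proliferation in epithelial and smooth muscle cells, had 759, 872, 839.7 and 694 without OHT and 298, 275, 312 and 271 with OHT. The OHT arrays were all lower, and the mean signal was 2.74 times lower, with a log2 change of -1.40 ± 0.12 (SE, adjusted p = 1.5e-07). The second KLF5 probe set had a log2 change of -0.77 ± 0.12 (SE, adjusted p = 8.7e-05). KLF4, the pluripotency factor, had signals of 0.51 to 30.3 and 1.78 to 33.1 at its probe sets on the 14 arrays. The first of these was called lower with OHT, at -1.04 ± 0.22, and the second gave 0.48 ± 0.28 and was not called (adjusted p = 0.18), so no direction is given for KLF4.

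All 15 calls in scrambled cells held in every alternative that tested them, centring each array on its median and leaving out each array included. The median signal of the arrays moves with OHT, and after median centring the changes of the 15 called probe sets kept their sign and their call. The ACTB ratio and the osteoblast, epithelial and neural marker sums given above also moved with OHT in scrambled cells, without overlap between the groups, and their part in the KLF changes was not tested.

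**Figure D2:**
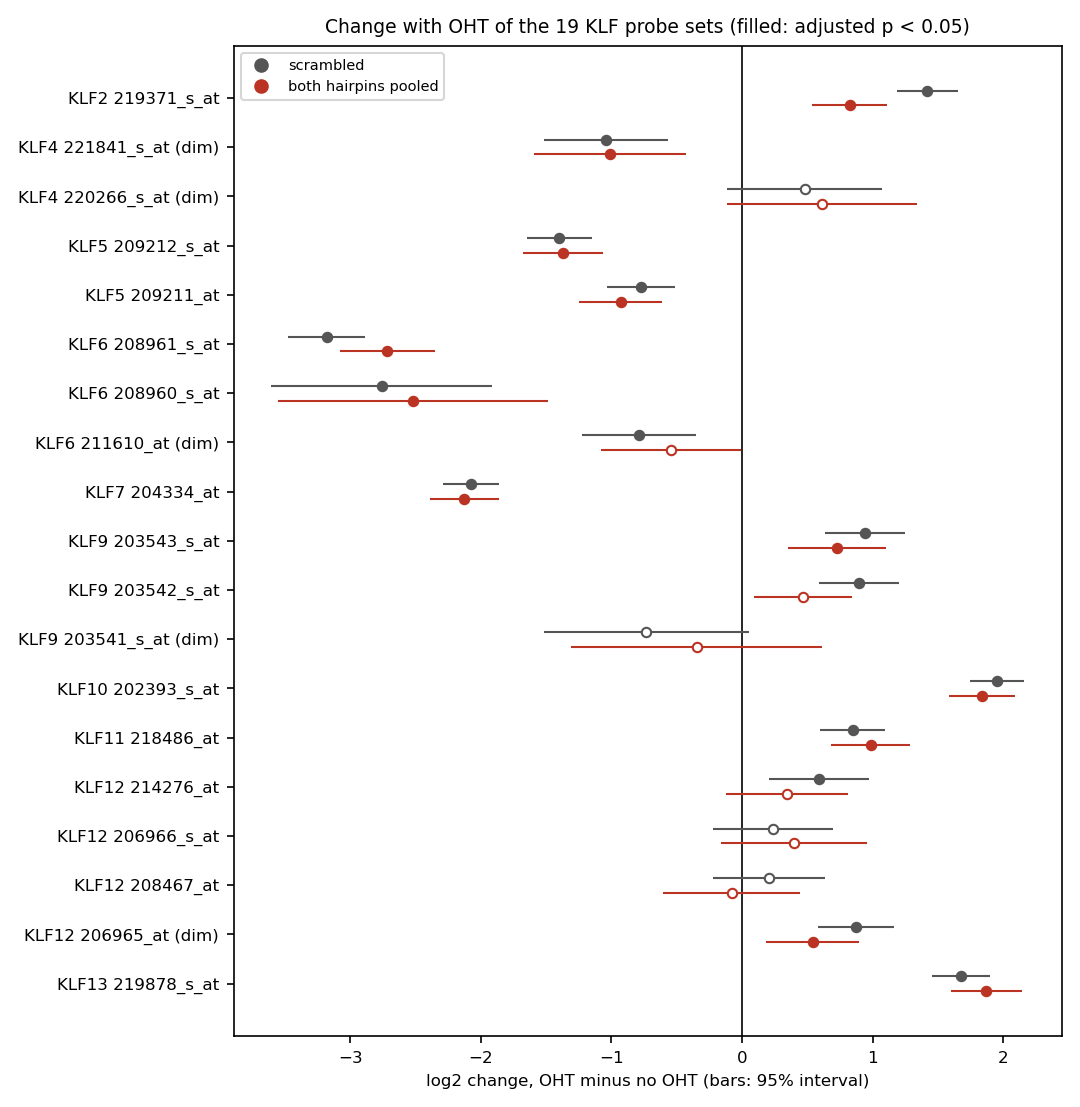
Log2 change with OHT of the 19 KLF probe sets in scrambled cells (grey) and in cells with either hairpin (red), with 95% intervals and filled points for an adjusted p under 0.05. KLF5, KLF6 and KLF7 lie left of 0 in both, and KLF10 and KLF13 lie between 1.68 and 1.95 to its right.

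In hairpin cells OHT raised KLF2, KLF9, KLF10, KLF11 and KLF13 and lowered KLF5, KLF6 and KLF7. Pooling both hairpins, 6 of the 19 KLF probe sets rose and 6 fell, against 12.4% and 21.4% of all probe sets. KLF10 rose by 1.84 ± 0.12, KLF13 by 1.87 ± 0.13, KLF11 by 0.99 ± 0.14 and KLF2 by 0.83 ± 0.13 on the log2 scale. KLF6 changed by -2.72 ± 0.17, KLF7 by -2.13 ± 0.12 and KLF5 by -1.37 ± 0.14, all lower with OHT. These changes rest on 2 arrays without OHT, 1 for each hairpin.

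For KLF9 the probe sets above the level did not give the same call. KLF9 had 209 without OHT and 275 and 311 with it in shFOXO33 cells, and 121 without OHT and 228 and 292 with it in shFOXO707 cells. Each hairpin was thus higher with OHT, and the pooled change was 0.73 ± 0.17 (SE, adjusted p = 0.0044). Without the shFOXO707 con array that call was lost (adjusted p = 0.13), and the second KLF9 probe set was not called at all, at 0.47 ± 0.17 (SE, adjusted p = 0.054). The brightest KLF12 probe set gave 0.34 ± 0.22 (SE, adjusted p = 0.26) and was not called, while the dim one was called higher, at 0.54 ± 0.17 (SE, adjusted p = 0.021). That call was lost without the shFOXO33 con array (adjusted p = 0.14) or the shFOXO707 con array (0.052).

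The change with OHT was not shown to differ between hairpin and scrambled cells for any KLF. In the test of that difference 0 of the 19 probe sets were called in limma, where 0.0405% of all probe sets were called higher and 0.081% lower. Of the 19, 1 had an unadjusted p under 0.05, a level whose share over all probe sets was not computed. That probe set was of KLF2, named after its value was seen. Its change with OHT differed by -0.59 log2 units, hairpin minus scrambled (95% interval -0.96 to -0.22, adjusted p = 0.31). For KLF10 the difference was -0.11 (-0.44 to 0.21), for KLF6 0.46 (-0.0048 to 0.93) and for KLF9 -0.21 (-0.70 to 0.27). A p above the threshold does not show that the responses were alike.

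With OHT present, the hairpins lowered KLF9 and raised KLF13 and KLF7, the KLF7 call being lost in several alternatives. Of the 19 KLF probe sets 2 rose and 2 fell with the hairpins pooled, against 6.1% and 3.95% of all probe sets. Both that fell belonged to KLF9. This comparison sets hairpin against scrambled cells, all with OHT. Effects of the hairpins other than the loss of FOXO1 and FOXO3 were not tested.

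KLF9 had signals of 510.4, 449, 437 and 472 in scrambled cells with OHT, 275 and 311 with shFOXO33 and 228 and 292 with shFOXO707. All 4 hairpin arrays were below all 4 scrambled ones, at 59.1% of the scrambled mean, and the log2 difference was -0.73 ± 0.14 (SE, adjusted p = 0.0046). The second probe set, with 471, 414, 408 and 452 in scrambled cells and 262 and 296 and 183 and 233 in shFOXO33 and shFOXO707 cells, gave -0.82 ± 0.14 (SE, adjusted p = 0.0022). Ordered by group mean with OHT, KLF9 ran from scrambled, at 467 ± 32.3 (SD, n = 4), to shFOXO33 at 293 ± 25.7 (SD, n = 2) and shFOXO707 at 260.1 ± 44.8 (SD, n = 2). The scrambled arrays without OHT, at 236 ± 23.9 (SD, n = 4), overlapped the shFOXO707 OHT arrays.

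KLF13 had 1073, 1212, 1370.2 and 1519 in scrambled cells with OHT, 1555 and 1758 with shFOXO33 and 1904 and 1844 with shFOXO707. All hairpin arrays were above all scrambled ones, at 136% of the scrambled mean, with a log2 difference of 0.45 ± 0.10 (SE, adjusted p = 0.013). KLF7 had 70.4, 87.1, 91.4 and 78.3 in scrambled cells, 116 and 121 with shFOXO33 and 106 and 102 with shFOXO707. These did not overlap either, and the log2 difference was 0.38 ± 0.10 (SE, adjusted p = 0.028). The KLF7 call was lost without sh-scr OHT array 1 (adjusted p = 0.087), sh-scr OHT array 4 (0.071), shFOXO33 OHT array 1 (0.063) or shFOXO33 OHT array 2 (0.074). It was also lost with the replicate number as a block (0.08).

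The other KLFs were not called in that comparison. KLF2 gave 0.35 ± 0.11 (SE, adjusted p = 0.062), KLF6 gave 0.29 ± 0.14 (SE, adjusted p = 0.23) and KLF12 gave -0.41 ± 0.18 (SE, adjusted p = 0.18). KLF10 gave -0.15 ± 0.10 (SE, adjusted p = 0.4), KLF5 gave -0.13 ± 0.12 (SE, adjusted p = 0.58) and KLF11 gave -0.02 ± 0.12 (SE, adjusted p = 0.94). KLF12 is taken up again with the values of each hairpin.

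Without OHT, KLF2 was the only KLF gene called with the hairpins pooled, which does not show that the others were unchanged. Of the 19 probe sets 1 rose and 0 fell in limma, against 1.76% and 1.4% of all probe sets. In either direction 4 of the 19 had an unadjusted p under 0.05. The share of all probe sets at that unadjusted level was not computed, so that count is not read as a result. KLF2 had 214, 237, 259.6 and 220.5 in scrambled cells, 447 with shFOXO33 and 471 with shFOXO707. Both hairpin arrays were above all scrambled ones, at 197% of their mean, and KLF2 rose by 0.94 ± 0.13 (SE, adjusted p = 0.0016). The summed endothelial marker signal was 181 and 158 on the shFOXO33 and shFOXO707 arrays, within the range of the scrambled arrays given above.

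Among the arrays without OHT, KLF2 thus had its lowest signals in scrambled cells. From lowest to highest, its group means ran sh-scr con, shFOXO33 con, shFOXO707 con, sh-scr OHT, shFOXO707 OHT and shFOXO33 OHT. The last 3 groups were at 649.9, 803 and 861, and a shFOXO33 OHT array, at 721, lay within the sh-scr OHT range. KLF2 has been described as a direct FOXO1 target in lymphocytes, and any link of FOXO1 to the KLF2 values here was not tested.

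KLF7 had 379.7, 363, 417 and 421 in scrambled cells without OHT and 539 and 538 with shFOXO33 and shFOXO707. Both hairpin arrays were higher, but the difference of 0.43 ± 0.12 (SE, adjusted p = 0.082) missed the threshold. KLF9 had 209 with shFOXO33, within the range of the scrambled arrays, and 121 with shFOXO707, below them. Its pooled difference was -0.52 ± 0.17 (SE, adjusted p = 0.15). KLF13 gave 0.26 ± 0.13 (SE, adjusted p = 0.38).

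**Figure D3:**
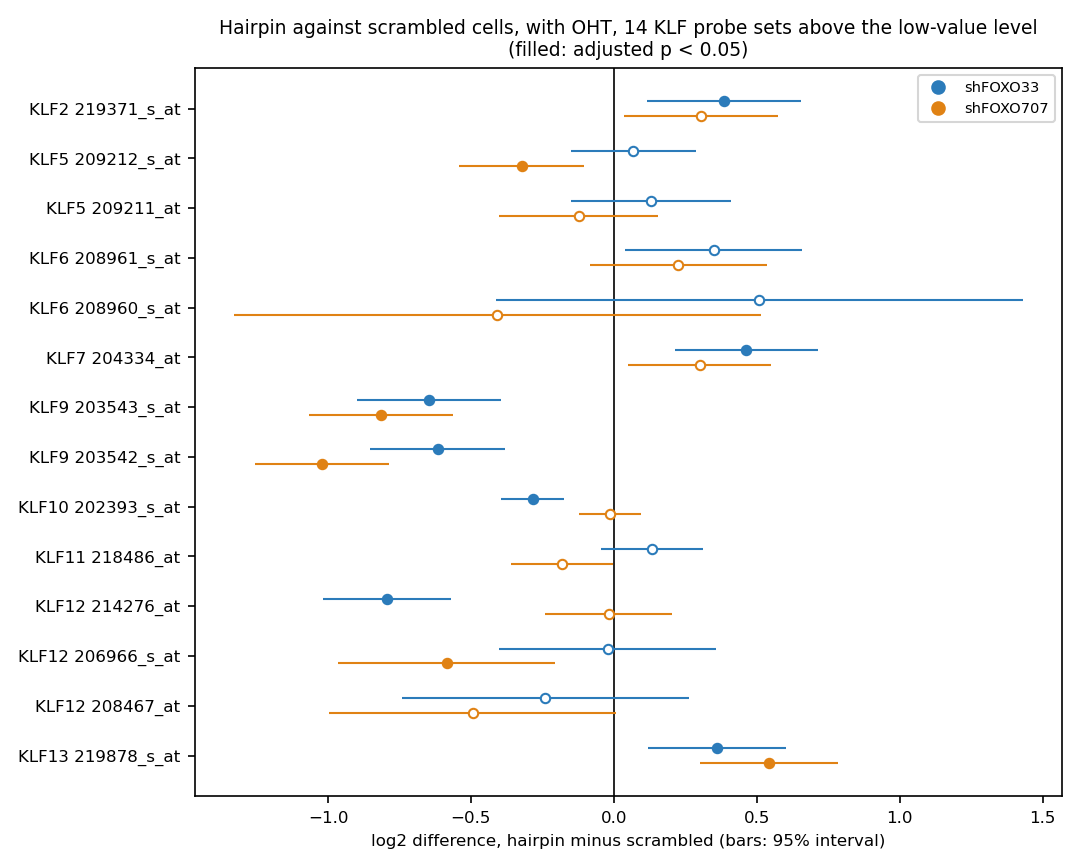
Log2 difference of each hairpin from scrambled cells, all with OHT, for the 14 KLF probe sets above the low-value level, with 95% intervals and filled points for an adjusted p under 0.05. Both KLF9 probe sets lie left of 0 and KLF13 right of 0 for both hairpins, while the brightest KLF12 probe set is at -0.79 for shFOXO33 and -0.02 for shFOXO707.

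Each hairpin was also set against scrambled cells by itself, with 2 arrays of each and a fit of 6 groups. With shFOXO33 and OHT 3 of the 19 KLF probe sets rose and 4 fell, against 13.7% and 11.6% of all probe sets. With shFOXO707 and OHT 1 rose and 4 fell, against 11.2% and 9.28%. Both comparisons share the scrambled arrays. KLF9 fell with both, at -0.65 ± 0.12 (SE, adjusted p = 7.7e-04) with shFOXO33 and -0.81 ± 0.12 (SE, adjusted p = 1.5e-04) with shFOXO707, and its second probe set gave -0.62 and -1.02. KLF13 rose by 0.36 ± 0.11 (SE, adjusted p = 0.028) with shFOXO33 and by 0.54 ± 0.11 (SE, adjusted p = 0.0028) with shFOXO707.

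Some KLFs were called with 1 hairpin and not the other, and the difference between the hairpins has its own test further on. KLF12 had 333, 360.1, 377 and 413 in scrambled cells with OHT, 231 and 184 with shFOXO33 and 349.6 and 380.3 with shFOXO707. The shFOXO33 arrays were below all scrambled ones, and the shFOXO707 arrays lay within them. The log2 difference from scrambled cells was -0.79 ± 0.10 (SE, adjusted p = 4.8e-05) with shFOXO33 and -0.02 ± 0.10 (SE, adjusted p = 0.94) with shFOXO707. The second brightest KLF12 probe set gave the reverse order, at -0.02 with shFOXO33 and -0.59 with shFOXO707, so the probe sets of KLF12 disagree on the hairpin.

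KLF10 had 5319 and 5598 with shFOXO33 and 6502 and 6672 with shFOXO707, against the scrambled values given above. The shFOXO33 arrays were below all scrambled arrays and the shFOXO707 arrays within their range, with log2 differences of -0.28 ± 0.05 (SE, adjusted p = 7.1e-04) and -0.01 ± 0.05 (SE, adjusted p = 0.91). KLF7 rose with shFOXO33 by 0.46 ± 0.12 (SE, adjusted p = 0.0082), and KLF2 by 0.39 ± 0.13 (SE, adjusted p = 0.036). With shFOXO707 their mean signals were also higher than in scrambled cells, 1.27-fold for KLF7 and 1.24-fold for KLF2. Those shFOXO707 arrays did not overlap the scrambled ones, but neither gene was called. The test between the hairpins called neither gene, so a rise particular to shFOXO33 was not shown. The KLF2 call was lost without shFOXO33 OHT array 2 (adjusted p = 0.52), the KLF7 call without the same array (0.067), and the KLF2 call also without sh-scr OHT array 1 (0.07) or 3 (0.085). The KLF13 call with shFOXO33 was lost without either shFOXO33 OHT array (0.051 and 0.25) or without sh-scr OHT array 1 (0.059) or 2 (0.064), and KLF2 and KLF13 lost it under median centring too (0.058 and 0.06).

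With shFOXO707, KLF5 had 224 and 231 against 298, 275, 312 and 271 in scrambled cells with OHT. Both arrays were lower than every scrambled one, and this probe set fell, at -0.32 ± 0.10 (SE, adjusted p = 0.036). The second KLF5 probe set, with 185 and 199.8 against 224, 226, 209 and 187, overlapped and was not called, at -0.12 ± 0.13 (SE, adjusted p = 0.61). The call of the first was lost without sh-scr OHT array 1 (adjusted p = 0.073) or 3 (0.083) and without either shFOXO707 OHT array (0.19 and 0.12). The second brightest KLF12 probe set was called lower with shFOXO707 (adjusted p = 0.029), and that was lost without sh-scr OHT array 1 (0.072) or 2 (0.071) or either shFOXO707 OHT array (0.064 and 0.22). The 3' to 5' ACTB ratio was highest on the shFOXO707 OHT arrays and the epithelial marker sum lowest there, while the osteoblast and mesenchymal sum was lowest on the shFOXO33 OHT arrays. Within that list the markers did not move together: against scrambled cells with OHT, mean signals with shFOXO33 and OHT were 804 against 8802 for SPARC, 7152 against 7428 for COL1A1, 538.5 against 904 for MSX2, 156 against 188 for COL1A2, 13568 against 12557 for VIM and 233 against 110.4 for ALPL. Their part in the hairpin values was not tested.

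The difference between the hairpins was tested directly with OHT. Of the 19 KLF probe sets 2 were higher with shFOXO707 than with shFOXO33 and 3 lower, against 11.1% and 11% of all probe sets. The brightest KLF12 probe set was higher with shFOXO707 by 0.77 ± 0.12 (SE, adjusted p = 2.2e-04), but the second brightest lay the other way, at -0.56 ± 0.20 (SE, adjusted p = 0.064), and was not called, so no direction is given for KLF12. KLF10 was higher with shFOXO707 by 0.27 ± 0.06 (SE, adjusted p = 0.0035). The brighter KLF5 probe set was lower with shFOXO707, at -0.39 ± 0.12 (SE, adjusted p = 0.026), with the other KLF5 probe set at -0.25 ± 0.15 (SE, adjusted p = 0.29) and not called. Lower calls were also made for KLF11, at -0.31 ± 0.10 (SE, adjusted p = 0.029), and the second KLF9 probe set, at -0.40 ± 0.13 (SE, adjusted p = 0.033), while the first KLF9 probe set gave -0.17 ± 0.14 (SE, adjusted p = 0.46). The KLF12 and KLF10 calls held without each array, while those of KLF5, KLF11 and KLF9 did not. Without shFOXO33 OHT array 2 they had adjusted p values of 0.24, 0.27 and 0.2, and without shFOXO707 OHT array 1 0.11, 0.21 and 0.29. KLF5 was also lost without shFOXO707 OHT array 2 (0.078).

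The response to OHT was called for 12 of the 19 KLF probe sets with each hairpin. With shFOXO33 6 rose and 6 fell, against 12.4% and 21.3% of all probe sets. With shFOXO707 7 rose and 5 fell, against 13.1% and 22%. KLF9 rose by 0.46 ± 0.17 (SE, adjusted p = 0.047) with shFOXO33 and by 0.997 ± 0.17 (SE, adjusted p = 2.4e-04) with shFOXO707. The shFOXO33 call was lost in 10 alternatives, with adjusted p values up to 0.18, among them leaving out sh-scr con array 3 or 4, any of the 4 sh-scr OHT arrays or either shFOXO33 OHT array. KLF12 gave 0.11 ± 0.15 (SE, adjusted p = 0.64) with shFOXO33 and rose by 0.57 ± 0.15 (SE, adjusted p = 0.0067) with shFOXO707, each against 1 array without OHT. The second brightest KLF12 probe set was called with shFOXO33, at 1.12 ± 0.25, and not with shFOXO707, at -0.32 ± 0.25.

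The genes whose pattern over the 14 arrays was most like that of a KLF were found by the root mean square difference of log2 values, each gene centred on its own mean, among 7719 other genes above the level. Nearest to KLF10 were COMMD3, at 0.085 log2 units, MBD4, a DNA glycosylase, at 0.11 and PURA at 0.11. Nearest to KLF6 were the TNF receptor gene TNFRSF1A at 0.19, TM4SF1 at 0.19 and NEDD9 at 0.24. Nearest to KLF9 were the phospholipase gene PLCG2 at 0.18, ZNF654 at 0.21 and the ribosomal S6 kinase gene RPS6KA1 at 0.22.

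Genes linked to KLF function were taken from 4 lists. Their counts use 1 probe set a gene above the level, while the shares of all probe sets include dim ones. Of 17 other KLF and SP genes 8 were on the array and 4 above the level (KLF3, SP2, SP3 and SP4). With OHT in scrambled cells 0 of these 4 were called in limma, where 16.2% of all probe sets rose and 29.2% fell. So few genes give no result about the relatives. Of the 4, 1 had an unadjusted p under 0.05, and their median change was 0.15 against -0.14 over all probe sets. SP3, which competes with SP1 for GC boxes, gave 0.17 ± 0.07 (SE, adjusted p = 0.07), KLF3 gave 0.37 ± 0.21 (SE, adjusted p = 0.17), SP4 gave 0.12 and SP2 gave -0.08. With hairpins and OHT, SP3 was the 1 of the 4 that was called, and rose by 0.41 ± 0.07 (SE, adjusted p = 0.002). In that comparison 6.1% of all probe sets rose and 3.95% fell. After median centring 2 of the 4 were called higher with OHT in scrambled cells, and after quantile normalization 1.

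Of 11 corepressors and coactivators 10 were above the level, of which 3 rose and 4 fell with OHT in scrambled cells, where 16.2% and 29.2% of all probe sets did, with a median of -0.19. The CtBP genes, whose products bind KLF12, parted: CTBP2 rose by 0.97 ± 0.07 (SE, adjusted p = 6.4e-08) and CTBP1 fell, at -0.52 ± 0.06 (SE, adjusted p = 2.9e-06). The acetyltransferase genes KAT2B and CREBBP rose, by 2.05 and 0.52. SIN3B, a relative of the SIN3A scaffold that the KLF9, KLF10, KLF11 and KLF13 motif binds, fell, at -0.83. The deacetylase genes HDAC1 and HDAC2 gave -0.15 and -0.41, and their calls were lost after median centring, where HDAC1 turned to 0.08 and the list held 3 higher and 2 lower calls. The HDAC1 call was also lost without sh-scr con array 3 or sh-scr OHT array 2 or 3. With hairpins and OHT 2 of the 10 rose, where 6.1% of all probe sets did: CTBP1 rose by 0.54 ± 0.06 (SE, adjusted p = 5.0e-05), and CREBBP by 0.37.

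Of 13 upstream kinases, MEF2 factors and ubiquitin ligases 10 were above the level. With OHT in scrambled cells 2 of the 10 rose and 4 fell, where 16.2% and 29.2% of all probe sets did, with a median of -0.24. These counts are not read as a result about the list. BTRC, which encodes a ubiquitin ligase subunit, fell, at -1.41 ± 0.14 (SE, adjusted p = 8.0e-07), and so did the ligase gene ITCH, at -0.48, and the kinase gene MAP2K5, at -0.77. SIAH1, a ubiquitin ligase gene, rose by 0.54 and MEF2A, of the MEF2 family whose element stands in the KLF2 window printed above, by 0.71. The other MEF2 genes listed, MEF2C and MEF2D, were dim and had lower mean signals with OHT in scrambled cells. These were 33.1 against 62.6 without OHT for MEF2C and 36.8 against 132.6 for MEF2D. Any link of MEF2 genes to KLF2 was not tested. Median centring gave 4 higher and 3 lower calls, with FBXW7 no longer among them. With hairpins and OHT 1 of the 10 rose and 1 fell, where 6.1% and 3.95% of all probe sets did: SIAH1 rose by 0.29 and ITCH fell, at -0.46.

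Of 24 genes described as KLF targets 20 were on the array and 13 above the level. With OHT in scrambled cells 2 of the 13 rose and 5 fell, where 16.2% and 29.2% of all probe sets did, with a median of -0.22. These counts are not read as a result about KLF targets. EDN1, the endothelin gene that KLF2 is described to repress, fell from a mean signal of 369 to a dim 18.4 (adjusted p = 6.9e-10), and the size of its log2 change, -3.49, ran from -4.28 to -2.39 with other pseudocounts. PLAU, the urokinase gene described as a KLF6 target, fell too, at -1.72. ATF3, a stress factor gene, rose by 1.002 and PDGFA, a growth factor gene described as a KLF5 target, by 2.07. The mitotic cyclin gene CCNB1 fell, at -0.57. Median centring gave 4 higher and 4 lower calls, with TGFB1 no longer lower. With hairpins and OHT 1 of the 13 rose and 3 fell, where 6.1% and 3.95% of all probe sets did: TGFB1 rose by 0.46, and the cyclin gene CCND1, at -1.02, CDKN1A, at -0.29, and ATF3, at -0.37, fell. The ATF3 call was lost without sh-scr OHT array 1, 2 or 3, shFOXO33 OHT array 1 or shFOXO707 OHT array 1, with adjusted p values up to 0.097, and the ATF3 and CDKN1A calls were lost with the replicate block.

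**Figure D4:**
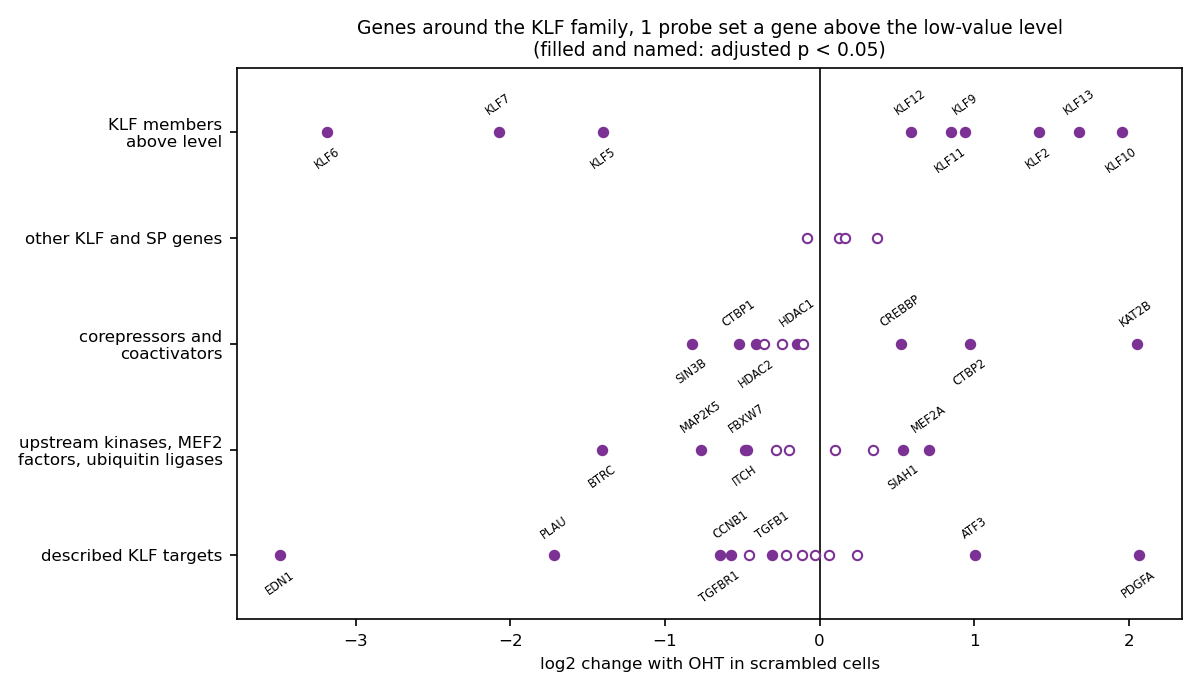
Log2 change with OHT in scrambled cells for 9 KLF genes and for genes of 4 related lists above the low-value level, 1 probe set a gene, with filled and named points for an adjusted p under 0.05. All 9 of these KLF genes are called, from -3.18 for KLF6 to 1.95 for KLF10. Of the 4 other KLF and SP genes, which include KLF3, 0 are called.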

How the data were processed

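RNA from 14 samples was measured on 1 Affymetrix array each. The authors deposited 1 linear intensity per probe set and array, and the submitters' processing notes name MAS5 as the tool, whose version the sources used here do not give. No detection call was used. Of 22277 probe sets, 62 controls were left out. The platform annotation gave 1 gene for 19064 of the rest, several for 1043 and none for 2108, and 19052 symbols were updated through RefSeq.

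Signals were transformed as log2(signal + 16), so changes of dim genes are understated. The low-value level was the 40th percentile of the mean log2 value over probe sets naming 1 gene. limma 3.58.1 in R 4.3.3 (lmFit, eBayes with a trend) was fitted to all 22215 probe sets and 14 arrays, in 4 groups with both hairpins pooled and in 6 groups for each hairpin. Arrays of 1 hairpin counted as separate replicates in the pooled fit. Tests were two-sided, and calls used a Benjamini-Hochberg adjusted p under 0.05. The procedure was tested on simulated data.

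The KLF members, lists and motifs were chosen with earlier results of these data known. Each gene is shown by its probe set of highest mean, and list genes named were those with the smallest adjusted p, up to 4 a list and comparison. SIN3B, HDAC1, HDAC2, MAP2K5, MEF2C, MEF2D, FBXW7 and PDGFA were added after their values were seen. Arrays have no sequencing depth, and their number limits the precision. Alternatives were the pseudocount, a filter, centring, quantile normalization, no variance trend, 6 groups, 1 hairpin alone, 1 probe set a gene, a replicate block and leaving out each array.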

Additional observations from a re-analysis of the deposited data

Results flagged for a closer look

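Among 28 groups of 4 scrambled arrays tested, 2 had an array far from the other 3 by Dixon's test, where chance marks about 1 in 20 groups. The brightest KLF6 probe set had its highest scrambled signal without OHT on array 1, at 866. KLF10 had its lowest scrambled signal without OHT on array 4, at 1566.

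The hairpins differed from each other with OHT for 5 KLF probe sets in limma, given as shFOXO707 minus shFOXO33 on the log2 scale. The difference was 0.77 for the brightest KLF12 probe set, 0.27 for KLF10, -0.39 for the brighter KLF5 probe set, -0.31 for KLF11 and -0.40 for the second KLF9 probe set. The second brightest KLF12 probe set lay the other way, at -0.56 ± 0.20 (SE, adjusted p = 0.064), and was not called.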

How the results depend on the processing

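Of 73 called values of KLF probe sets over the 10 comparisons, 57 stayed called in every alternative that tested them, 16 were lost in at least 1, and 0 changed sign. Of 117 values not called, 25 were called in at least 1 alternative. With 1 probe set a gene, which leaves 9 KLF probe sets, the calls numbered 9 rather than 15 for OHT in scrambled cells and 2 rather than 1 for the hairpins without OHT. With the 6 groups kept apart there were 7 rather than 4 calls for the hairpins with OHT and 4 without OHT. The hairpins without OHT had 2 calls after the filter on dim probe sets and 2 with a pseudocount of 64. shFOXO33 alone gave 7 calls with OHT and 3 without, and shFOXO707 alone gave 4 without OHT. Without a variance trend the difference between hairpins had 3 calls rather than 5. Leaving out each array in turn gave 15 calls for OHT in scrambled cells, 11 to 13 in hairpin cells, 3 to 5 for the hairpins with OHT, 1 to 2 without OHT, 0 for the interaction, 11 to 13 for OHT with shFOXO33 and 11 to 13 with shFOXO707, 4 to 7 for shFOXO33, 3 to 5 for shFOXO707 and 2 to 6 for the hairpin difference. Deviations of same-numbered scrambled arrays without and with OHT had r from -0.0035 to 0.048 over 4 pairs. The 12 pairs of other numbers had r from -0.056 to 0.029. So few pairs, with values this small, cannot settle whether the numbers pair the arrays. With the replicate number as a block the calls were 15 for OHT in scrambled cells, 3 for the hairpins with OHT and 6 for the hairpin difference. Among list genes, median centring turned HDAC1 to 0.081 and CDKN1A to 0.20 with OHT in scrambled cells. With shFOXO707 alone and OHT, HDAC2 was 0.23, SMURF2 -0.78, PDGFA 0.95, TAGLN -0.36 and BIRC5 -0.21, each against a pooled value of the other sign. Where a call changed, the cause was not tested. Signal over background was not analysed here.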
